A study of Mus musculus with 18 samples.

Results

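Osgin1 encodes oxidative stress induced growth inhibitor 1, a protein first described as a brake on cell proliferation and known to be induced by oxidised lipids and DNA damage. Its level was followed here in the brains of mice with and without the transcription factor NRF2, which the gene Nfe2l2 encodes. The members are all the array probes whose annotation names Osgin1, and 2 of 41174 probes did so, each printed as 1 spot. They stand for 1 of the 22671 genes tested. The probe with the higher mean level, A_51_P189361, is called the main probe, and A_52_P576854 the second probe. The gene was chosen by its lower level in knockout brains on these same arrays, so its levels in knockout and wild type are given as a description, with no test.

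The study measured total RNA from 3 parts of the brain, the cortex, the hippocampus and the brainstem, in male mice of the 129SV strain under unstressed conditions. Each region was taken from Nrf2 knockout mice and from wild-type control mice of the same strain and sex, with no agent named for either. There were 3 arrays for each of the 6 groups, 18 in all, and each array was hybridised with 1 Cy3-labelled RNA. The series' text calls the RNAs of a group independent. The sources used here give neither the age of the mice nor the knockout allele, and whether the regions came from the same mice is not stated, so p-values measure the spread between these RNAs.

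NRF2 is held in the cytoplasm and degraded through its partner KEAP1. Oxidants and electrophiles release it, and in the nucleus it pairs with a small MAF protein and binds antioxidant response elements in the promoters of genes for glutathione synthesis, drug conjugation and NADPH supply. Osgin1 is known as one of its targets in endothelial and other cells. It is also known as a target of p53, and its protein has been linked to cell death through mitochondria and to autophagy. Osgin2 is its paralogue.

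The stretch before the gene's start is shown because an antioxidant response element is where NRF2 would meet DNA. RefSeq's annotation of GRCm38.p6 places the 250 bases before the start of Osgin1 at chr8:119436897-119437146 on the plus strand, and 58.4% of them are G or C. The capitals mark the match described below.
Osgin1 promoter: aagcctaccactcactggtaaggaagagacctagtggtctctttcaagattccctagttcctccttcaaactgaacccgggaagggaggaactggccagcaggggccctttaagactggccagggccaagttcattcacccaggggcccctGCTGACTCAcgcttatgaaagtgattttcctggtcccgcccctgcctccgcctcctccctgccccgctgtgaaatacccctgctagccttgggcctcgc
Read on the minus strand, the capitals spell TGAGTCAGC, from 99 to 91 bases before the start. That string holds the short core TGANNNNGC of the response element, where N is any base. It overlaps, on the plus strand from 97 to 91 bases before the start, TGACTCA, the letters bound by AP-1 factors. The stricter core TGACNNNGC was not found in this window. With both strands searched in windows of the same length, TGANNNNGC was present in 35.2% of 32851 mouse promoters, TGACNNNGC in 10.2%, TGACTCA in 4.46%, and the full TGAGTCAGC in 0.347%, which is 114 promoters. A match is a run of letters and does not show that a factor is bound there. The binding of NRF2 was not measured in these samples.

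Depth on an array is set by brightness over background. Between 65.3% and 75.1% of spots were well above background on each array, none was saturated, and the 75th percentile of processed intensity ran from 636 to 1102. Levels are given as log2 processed intensity minus that percentile of the array, so a level of 0 equals the percentile. The Nfe2l2 probe was well above background on all 9 wild-type arrays. In knockout cortex it was well above background on 0 of 3 arrays, so only a bound can be given: it was at least 158-fold lower than in wild type (limma adjusted p = 1.92e-06), with the lowest level of any probe well above background standing in on arrays where Nfe2l2 was below it. In knockout hippocampus all 3 arrays measured it, and the log2 difference was -5.60 ± 0.54 (SE; limma adjusted p = 5.10e-04). In knockout brainstem 1 of 3 arrays measured it, so the fitted difference of -7.50 (limma adjusted p = 1.10e-05) rests on 2 arrays below detection. Its per-array levels were between 0.79 and 1.39 in the wild types and between -8.39 and -3.62 in the knockouts, so no array went against its genotype label. The mean level of the 4 measured brainstem markers was between -2.42 and -2.01 on brainstem arrays and between -7.68 and -5.64 elsewhere. That of the 5 hippocampus markers was between 0.43 and 1.002 on hippocampal arrays and at most -1.08 elsewhere, and that of the 6 cortex markers was between -1.14 and -0.98 in cortex and at most -1.78 elsewhere. In a separate value table deposited for the series, 7 of 18 columns hold the values of an array other than the one named. The arrays here take their labels from the scanner files, and values by the table's own column names are given below.

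Osgin1 was a dim gene that was nevertheless detected everywhere: the main probe was well above background on all 18 arrays, those of the knockouts included. In every region all 3 knockout arrays lay below all 3 wild-type arrays. The mean level was 4.06-fold lower in knockout cortex, 2.47-fold lower in knockout hippocampus and 3.17-fold lower in knockout brainstem. These sizes are those of the main probe on processed intensity: the second probe, near its detection limit, gave 1.53-, 1.56- and 1.18-fold, and the normexp background correction gave log2 differences of -0.72, -0.48 and -0.70 for the main probe. In the brains without NRF2 the main probe's signal was thus lower but still above background.

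In cortex, the wild-type levels of the main probe were -3.47, -3.51 and -3.78. The knockout levels were -5.49, -5.64 and -5.70. The arrays of each genotype lay close together, and the lowest wild-type array was well above the highest knockout array. The group means were -3.59 ± 0.17 (SD, n = 3) and -5.61 ± 0.11 (SD, n = 3), a difference of -2.02 ± 0.22 (SE) with a 95% interval from -2.49 to -1.56.

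The wild-type arrays of hippocampus read -3.52, -3.71 and -4.50 for the main probe. The knockout arrays read -4.85, -5.36 and -5.42. The third wild-type array was the lowest of all 9 wild-type arrays and lay nearer to the highest knockout array than to the other wild types, although the groups did not overlap. The means were -3.91 ± 0.52 (SD, n = 3) and -5.21 ± 0.31 (SD, n = 3), and the difference was -1.30 ± 0.22 (SE), with a 95% interval from -1.77 to -0.84.

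Wild-type brainstem read -3.16, -3.47 and -3.58. Knockout brainstem read -5.10, -4.95 and -5.16. The groups did not overlap, and the knockout arrays were again close together. The means were -3.40 ± 0.22 (SD, n = 3) and -5.07 ± 0.11 (SD, n = 3), a difference of -1.67 ± 0.22 (SE) with a 95% interval from -2.13 to -1.20.

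**Figure D1:**
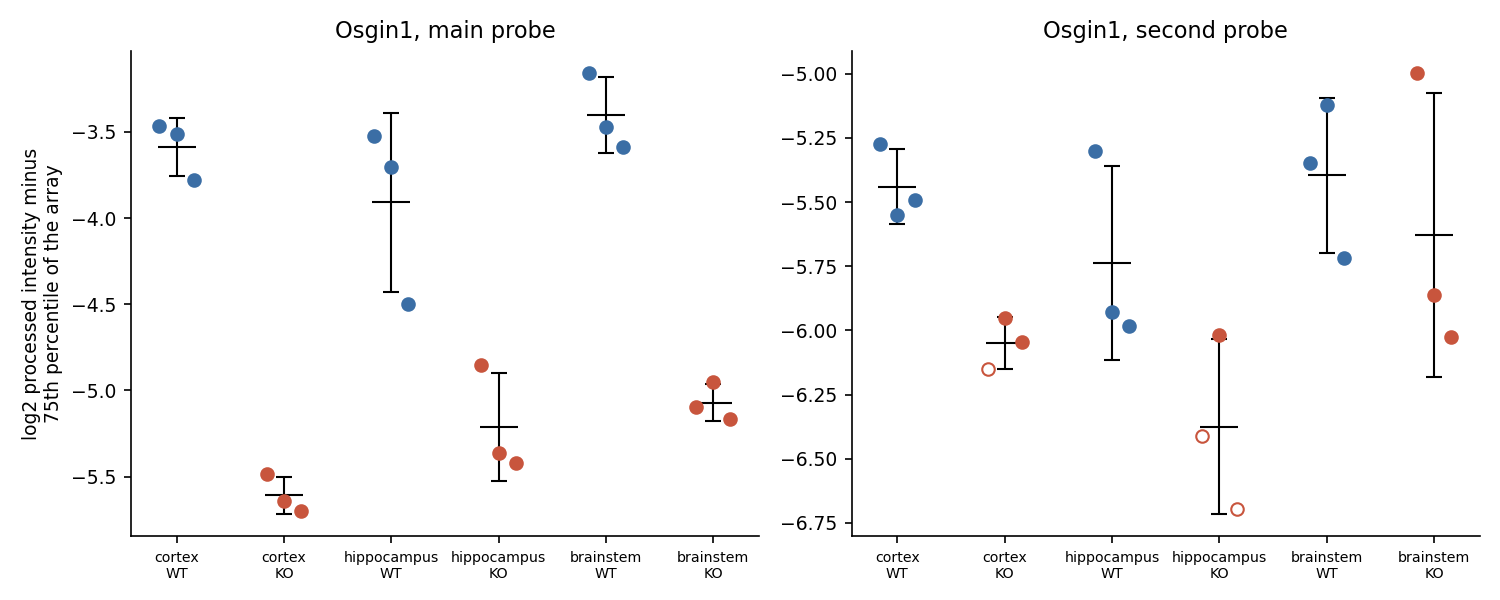
Osgin1 levels on each array, as log2 processed intensity minus the 75th percentile of the array, for the main probe (left) and the second probe (right), each on its own vertical axis. Points are single arrays (blue wild type, red knockout), open points are not well above background, and black bars are the mean ± SD of 3 arrays. Main-probe points lie between -4.50 and -3.16 in wild type and between -5.70 and -4.85 in knockout.

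A gene whose knockout arrays all lay below its wild-type arrays was not rare within 1 region. This held for 3.1% of genes in cortex, 2.7% in hippocampus and 3.03% in brainstem. It held in all 3 regions for 17 of 22615 genes, or 0.0752%, and Osgin1 was among them. Ordered by the size of the difference from the lowest up, Osgin1 stood at place 7 of 22671 genes in cortex, place 29 in hippocampus and place 13 in brainstem. Nfe2l2 stood at place 1 in each. These places restate the values that chose the gene and support nothing further.

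On processed intensity, the main probe's difference between genotypes had its largest value in cortex and its smallest in hippocampus. The order was not the same by every measure: the ratio of spot medians over local background was largest in brainstem, at 3.18 beside 2.95 in cortex and 2.37 in hippocampus. The second probe is not read for an order, since detection limits it in cortex and hippocampus. Its effects differed between regions by at most 0.40 ± 0.37 (SE). For the main probe on processed intensity, the hippocampal effect differed from the cortical one by 0.72 ± 0.31 (SE) on the log2 scale, the brainstem effect from the cortical one by 0.35 ± 0.31 (SE), and the brainstem effect from the hippocampal one by -0.36 ± 0.31 (SE). Whether the effect differed between regions was not tested, because the same contrasts had chosen the gene. Without the third wild-type array, the hippocampal difference was -1.60, and without the first it was -1.11. Read from the deposited table by its own column names, the differences were -1.30, -1.14 and -1.67 (SE 0.42 each), and the order of cortex and brainstem was turned.

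Arrays were printed on 5 slides, and wild type and knockout of a region with the same number always shared a slide. The difference held on every slide. In cortex it was -2.07 on the slide with 2 arrays of each genotype and -1.92 on the slide with 1 of each. In hippocampus it was -1.29 and -1.33 on such slides, and in brainstem it was -1.71 and -1.58.

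The pixels of the spots show the same groups before any scaling. For the main probe, the spot's median pixel minus the local background median was 89.5, 84.5 and 73.5 scanner units in wild-type cortex. It was 28, 29 and 27 in knockout cortex. The wild-type spots were thus 2.95 times as bright as the knockout spots by the ratio of the group means. Hippocampal spots read 90, 82.5 and 61 in wild type and 38, 28 and 32.5 in knockout, a ratio of 2.37. Brainstem spots read 144, 80.5 and 89 in wild type and 31, 32.5 and 35 in knockout, a ratio of 3.18. No knockout spot reached the dimmest wild-type spot of any region, which read 61. The first wild-type brainstem array was the brightest of all 18 in these units, and after scaling to its percentile it stayed the highest, at -3.16.

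The scanner software's processed intensity, from which the levels were computed, was lower than the median minus local background. It was 71.7, 63.5 and 59.0 in wild-type cortex and 14.2, 14.6 and 17.8 in knockout cortex. The gap between the 2 measures took a larger share of the brightness of the knockout spots, and the ratio between genotypes in cortex was wider in processed intensity than in pixels. The software's error estimate for the spot was 10.3% to 10.9% of the processed intensity in wild type and 11.9% to 20.0% in knockout. The direction did not depend on this choice but the size did. With the local background subtracted from the spot median, the log2 difference was -1.52 in cortex, -1.08 in hippocampus and -1.46 in brainstem. With the normexp correction, which adds a fixed offset before the log, it was -0.72, -0.48 and -0.70.

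**Figure D2:**
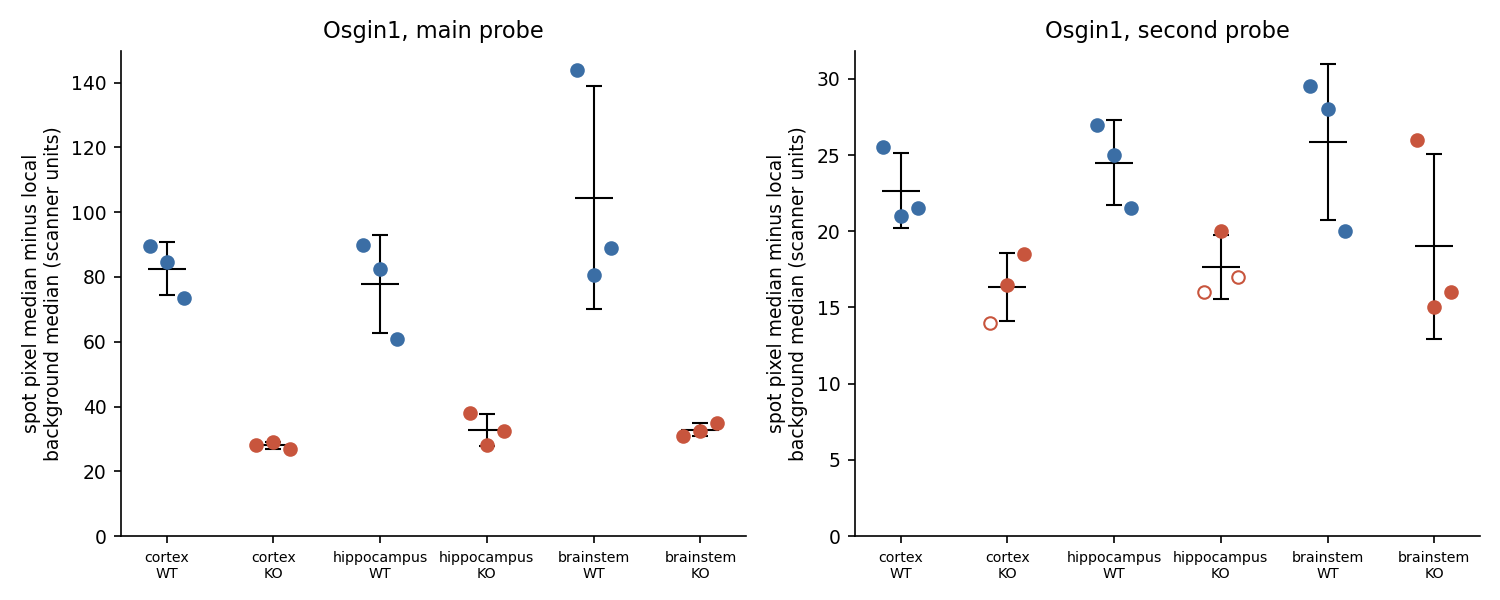
Spot median pixel minus local background median for both Osgin1 probes, in scanner units, by group, with vertical axes that start at 0. Points are single arrays (blue wild type, red knockout, open where not well above background) and bars are the mean ± SD of 3 arrays. Main-probe spots read 61 to 144 in wild type and 27 to 38 in knockout.

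The second probe, annotated to the same transcript, was near the limit of detection. It was well above background on all 9 wild-type arrays, and on 2 of 3 knockout arrays in cortex, 1 of 3 in hippocampus and 3 of 3 in brainstem. Its spots read 20 to 29.5 scanner units over local background in wild type and 14 to 26 in knockout. No sequence or position of either probe was available to the analysis, so whether they lie in different exons was not examined.

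In cortex the second probe read -5.28, -5.55 and -5.49 in wild type. It read -6.15, -5.95 and -6.05 in knockout. The groups did not overlap, as with the main probe, and the difference was -0.61 ± 0.26 (SE). In hippocampus it read -5.30, -5.93 and -5.98 in wild type and -6.41, -6.02 and -6.70 in knockout, without overlap, and differed by -0.64 ± 0.26 (SE). In brainstem it read -5.35, -5.12 and -5.72 in wild type and -5.00, -5.86 and -6.03 in knockout. There the first knockout array was above every wild-type array, the groups overlapped, and the difference was -0.23 ± 0.26 (SE), with a 95% interval from -0.79 to 0.32. Both probes were lower on average in knockout in all 3 regions. Since 3 of the 9 knockout spots of the second probe were not well above background, its differences in cortex and hippocampus are limited by detection and are not set against those of the main probe. In brainstem all its spots were well above background, and the main probe's interval there was from -2.13 to -1.20. Both probes were read on the same arrays, so these intervals are set side by side as a description only. Whether the probes differed there, and why, was not tested. Over the 18 arrays, after the mean of each group was subtracted, their levels correlated with Pearson's r = 0.29, a value given as a description of arrays that share labelling and slides.

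**Figure D3:**
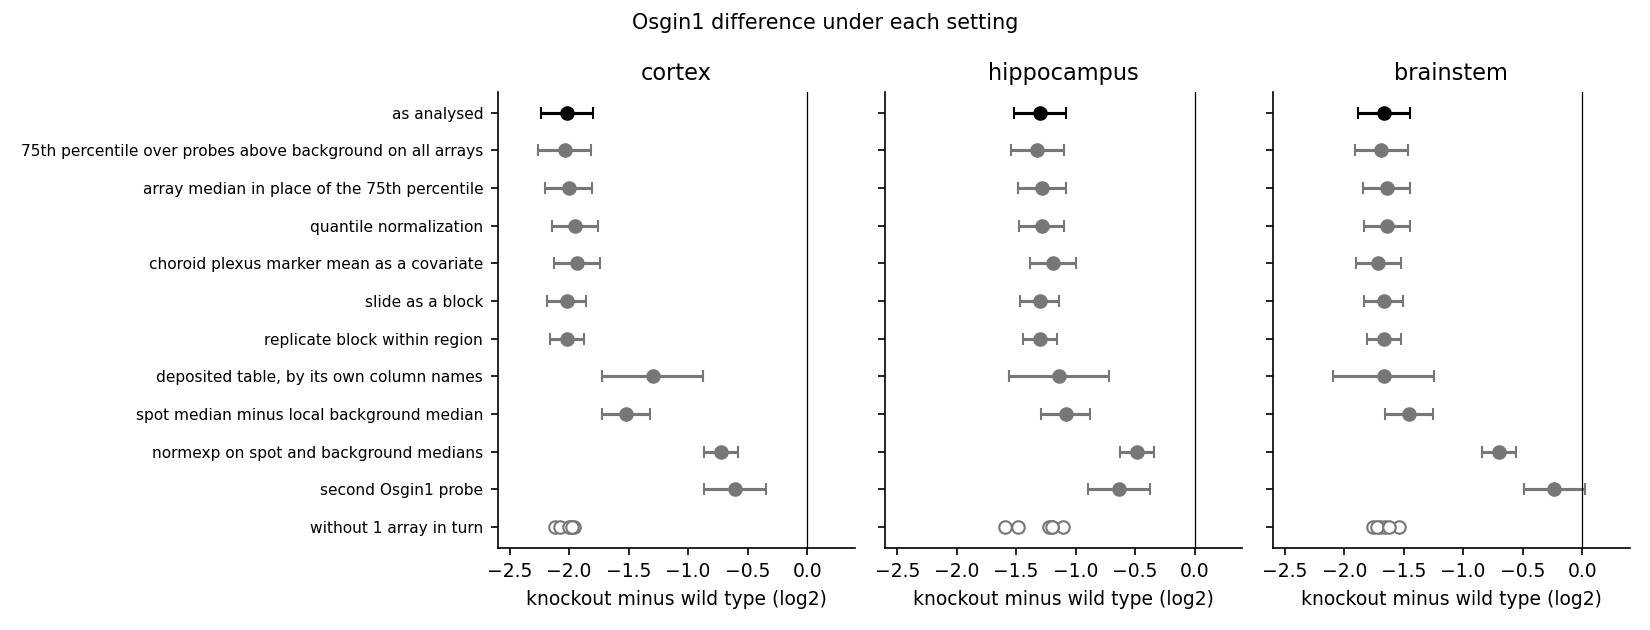
Knockout minus wild-type difference of Osgin1 on the log2 scale in each region (horizontal axis), with the setting used on the vertical axis. Filled points carry ± SE, and open points leave out 1 array in turn. The values of the main probe lie left of 0 in each setting drawn, from -2.12 to -0.48, and the second probe lies at -0.61, -0.64 and -0.23.

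Levels of Osgin1 were also compared between regions within 1 genotype, contrasts that had no part in choosing the gene. The contrasts use the fit over all 18 arrays, and none of the 6 passed at an adjusted p of 0.05. That fit leaves the replicate numbers out. With the number as a block over all arrays, wild-type brainstem minus hippocampus passed (limma adjusted p = 0.0159). So did knockout brainstem minus cortex (limma adjusted p = 0.0133). Among wild types the order of the means was brainstem, cortex, hippocampus, and no neighbouring pair differed beyond its spread. Hippocampus minus cortex was -0.32 ± 0.22 (SE; 95% interval -0.79 to 0.14; limma adjusted p = 0.361), where 17.2% of all genes were called. Brainstem minus cortex was 0.18 ± 0.22 (SE; 95% interval -0.28 to 0.65; limma adjusted p = 0.553), where 35.8% of genes were called. Brainstem minus hippocampus was 0.51 ± 0.22 (SE; 95% interval 0.04 to 0.97; limma adjusted p = 0.0765), where 41.5% of genes were called.

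That last wild-type difference rested on settings. With the replicate number as a block over all arrays it was 0.51 with a limma adjusted p of 0.0159, without the first wild-type hippocampal array it was 0.70 (limma adjusted p = 0.0255), and without the third it was 0.21 (limma adjusted p = 0.377). With the slide as a block it was -0.0053 with a limma adjusted p of 0.988. On the only slide that held both regions, with 1 array of each, brainstem minus hippocampus was -0.06 in wild type and -0.31 in knockout. Over all its alternatives the limma adjusted p ran from 0.0159 to 0.988.

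Among knockouts the order of the means was brainstem, hippocampus, cortex. Hippocampus minus cortex was 0.40 ± 0.22 (SE; 95% interval -0.07 to 0.86; limma adjusted p = 0.249), where 16.6% of all genes were called. Brainstem minus cortex was 0.54 ± 0.22 (SE; 95% interval 0.07 to 1.003; limma adjusted p = 0.0689), where 35.6% were called. With the replicate number as a block over all arrays, its limma adjusted p was 0.0133. The difference was 0.001 with normexp and 0.09 with local background subtraction (limma adjusted p = 0.997 and 0.773). Cortex shared no slide with the other regions, so slide and region cannot be told apart there. Brainstem minus hippocampus was 0.14 ± 0.22 (SE; 95% interval -0.33 to 0.61; limma adjusted p = 0.636), where 40.6% were called. The second probe gave 0.75 ± 0.26 (SE) for that last contrast (limma adjusted p = 0.0328), and it was well above background on only 1 of the 3 knockout hippocampal arrays.

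The other genes of the NRF2 pathway were read from 7 lists of targets by role. Of 47 such genes besides Osgin1, 45 were on the array and 41 were tested. In each region 2 of the 41 fell and none rose at a limma adjusted p under 0.05. Of all genes, 0.0265% fell in cortex, 0.0132% in hippocampus and 0.0221% in brainstem. The shares that rose were 0.00441%, 0.00441% and 0.00882%. Both were glutathione transferases of the mu class, Gstm1 and Gstm3, which attach glutathione to electrophiles. At an unadjusted limma p under 0.05 there were 6, 3 and 7 in cortex, hippocampus and brainstem, in either direction. The share of all genes under that threshold was not counted, so unadjusted counts, here and below, are not read as a result. The median difference over the 41 was -0.05, -0.04 and -0.05, beside 0.0014, 0.022 and 0.0025 over all genes. Most targets thus lay near 0 in these unstressed brains, while Osgin1 lay at -2.02, -1.30 and -1.67.

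Gstm1 fell by 1.03 ± 0.09 (SE) in knockout cortex (limma adjusted p = 6.31e-05), with levels of 6.32, 6.41 and 6.48 in wild type and 5.32, 5.42 and 5.39 in knockout. It fell by 0.81 in hippocampus (limma adjusted p = 0.00139) and fell by 1.01 in brainstem (limma adjusted p = 8.76e-05). Gstm3 fell by 1.02 ± 0.12 (SE) in cortex (limma adjusted p = 0.00244), fell by 0.81 in hippocampus (limma adjusted p = 0.0456) and fell by 1.15 in brainstem (limma adjusted p = 7.29e-04). The mu-class genes are close copies of one another, so their probes may share signal. The hippocampal count dropped to 1, Gstm1 alone, on leaving out each of the 6 arrays of that region in turn. With the replicate number as a block within regions it was 0 there, with limma adjusted p-values of 0.0765 for Gstm1 and 0.0803 for Gstm3, and 5 targets at an unadjusted p under 0.05.

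Among the other glutathione genes, none of the 6 for synthesis and supply passed in any region. The difference of Gclc, the catalytic subunit of the rate-limiting enzyme of glutathione synthesis, was -0.05, -0.08 and -0.08 (SE 0.12 each) in cortex, hippocampus and brainstem. Gclm, its modifier subunit, differed by 0.02, -0.04 and -0.01 (SE 0.15 each). Slc7a11, the cystine importer, differed by -0.05, -0.27 and -0.36 (SE 0.22 each), and its 2 other probes turned the sign in cortex, at 0.34 and 0.05. The intervals bound what could have been missed: the cortical difference of Gclc had a 95% interval from -0.31 to 0.21.

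Among the 7 tested genes for quinone, carbonyl and epoxide detoxification, none passed. Nqo1, the quinone reductase often used as a readout of NRF2, differed by -0.10, -0.22 and -0.08 (SE 0.16 each), with a 95% interval in hippocampus from -0.57 to 0.13. Aox1, an aldehyde oxidase, had the largest differences of the 41 in cortex and hippocampus, -1.34 and -1.09, and -1.06 in brainstem (SE 0.25 each), with limma adjusted p-values of 0.185, 0.9998 and 0.940. In cortex Aox1 was called with the replicate number as a block within regions (limma adjusted p = 0.0201).

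The thioredoxin, iron and haem, NADPH and export lists had no member called. Txnrd1, thioredoxin reductase, differed by 0.07, -0.09 and 0.13 (SE 0.15 each). Srxn1, which repairs oxidised peroxiredoxins, differed by -0.14, 0.03 and -0.05 (SE 0.09 each). Its 2 other probes differed by -0.13 and -0.09 in cortex, -0.06 and -0.11 in hippocampus, and -0.23 and -0.25 in brainstem. Hmox1, which degrades haem, differed by -0.11, -0.04 and -0.09 (SE 0.11 each).

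**Figure D4:**
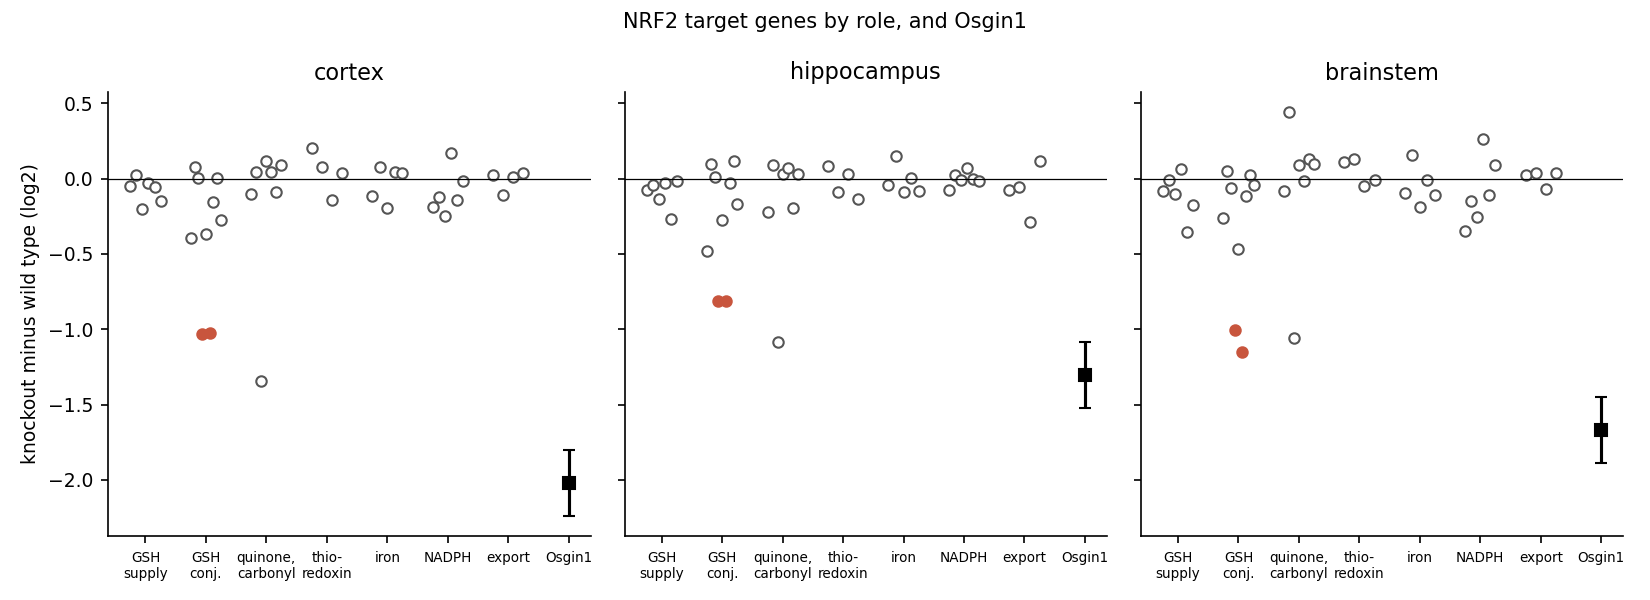
Knockout minus wild-type log2 difference (vertical axis) of the 41 tested NRF2 targets by role, and of Osgin1 (black square ± SE), in each region. Red filled points passed a limma adjusted p of 0.05 and are Gstm1 and Gstm3 in each panel, and open points did not pass. Osgin1 lies at -2.02, -1.30 and -1.67 and most targets lie near 0.

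The promoters of the 2 called transferases and of Aox1 were searched for the same letters. Gstm3 held 2 matches to TGANNNNGC, Aox1 held TGACTCA, and neither Gstm1 nor Nqo1 held any of the 4 strings in its RefSeq windows. None of them held the full TGAGTCAGC found before Osgin1. That a window lacks these letters says nothing about NRF2 at those genes.

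Of 10 regulators known to act on Osgin1 or on NRF2, Nfe2l2 was the only one called in each region, where the share of all genes called in either direction was 0.0309% in cortex, 0.0176% in hippocampus and 0.0309% in brainstem. Keap1, the repressor of NRF2, differed by -0.05, 0.05 and -0.02 (SE 0.17 each). Bach1, a repressor that competes at response elements, differed by 0.05, -0.15 and -0.07 (SE 0.21 each), and Nfe2l1, a relative of NRF2, by 0.14, 0.10 and 0.23 (SE 0.13 each). The small MAF partners did not pass: Mafg differed by -0.20, -0.09 and -0.18 (SE 0.18 each), Mafk by -0.10, -0.17 and -0.12 (SE 0.12 each), and Maff by -0.02, -0.25 and -0.0035 (SE 0.25 each). Klf2, a factor of the endothelial response to flow, differed by 0.26, 0.17 and 0.45 (SE 0.38 each) on the probe used, while its other probe, also well above background on all arrays, differed by -0.29, -0.49 and -0.27, so its direction is not settled. Klf4 differed by -0.12, -0.26 and 0.0061 (SE 0.20 each), and Trp53, which encodes p53, by -0.20, -0.10 and 0.08 (SE 0.35 each), with a second probe at 0.11, -0.12 and 0.07.

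The paralogue Osgin2 did not share the pattern. Its levels were 0.01, 0.11 and 0.14 in wild-type cortex and 0.23, 0.10 and 0.25 in knockout cortex, and the difference was 0.11, -0.02 and 0.02 (SE 0.08 each) across the regions. Of 11 tested p53 targets and 9 autophagy genes, none passed a limma adjusted p of 0.05 in any region, and none had an unadjusted p under 0.05. The p53 target with the smallest unadjusted p was Bbc3, a death-promoting BCL2 relative, in cortex (0.20 ± 0.16, SE) and brainstem (0.28), and Trp53inp1 in hippocampus (0.13 ± 0.10, SE). The autophagy gene with the smallest was Ulk1, a kinase that starts autophagy, in cortex (0.18 ± 0.12, SE) and hippocampus (0.14), and Atg12 in brainstem (0.18 ± 0.15, SE).

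The neighbours of Osgin1 in the genome, by their order in the RefSeq gene table, were read to see how far the difference extended. Of the 3 named genes on each side, 3 were tested, and none passed. Mlycd, on one side, encodes malonyl-CoA decarboxylase and differed by 0.20, 0.14 and 0.13 (SE 0.14 each). On the other side Necab2, a calcium-binding protein of neurons, differed by -0.22, 0.34 and 0.02 (SE 0.10 each). Mbtps1, a protease of the Golgi, differed by 0.27, 0.02 and 0.22 (SE 0.18 each) on the probe used, and its 2 other probes disagreed with it in sign in 1 or more regions, at -0.20 and 0.04 in cortex. Slc38a8 had probes but was too dim to test, and Gm46053 and Gm32006 were matched to no probe.

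Genes whose levels ran most like those of Osgin1 over the 18 arrays were ranked by Pearson's r among 14790 genes, once after the mean of each region was subtracted. The first 5 were Aox1 (r = 0.97), Nfe2l2 (r = 0.96), Slc11a1 (r = 0.94), Gstm1 (r = 0.94) and Itga6 (r = 0.90). This ranking holds the genotype difference that chose Osgin1. Slc11a1, a metal transporter of phagocytes, differed by -0.92, -0.70 and -0.87 (SE 0.16 each) between genotypes, with limma adjusted p-values of 0.115, 0.9998 and 0.178. Itga6, an integrin of endothelium and other cells, differed by -0.66, -0.48 and -0.54 (SE 0.14 each) and was not called either.

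The second ranking subtracted the mean of each of the 6 groups, which removes genotype and region and leaves the spread among arrays of a group. The first 5 were Angptl2 (r = 0.93), Hfe (r = 0.91), Mlkl (r = 0.90), Aox1 (r = 0.89) and Jhy (r = 0.89). Angptl2, a secreted angiopoietin-like protein, read -3.58, -4.00 and -6.13 in wild-type hippocampus and -4.17, -5.74 and -6.23 in knockout hippocampus, where 2 of 3 arrays were well above background. In each genotype the first array was the highest and the last array the lowest, as for Osgin1. Aox1 read -0.21, -0.30 and -1.18 in wild-type hippocampus and -1.23, -1.75 and -1.98 in knockout hippocampus, in the same order.

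Markers of the choroid plexus moved with that spread in hippocampus. In bulk tissue, fewer cells of a type and less RNA per cell cannot be told apart. The mean level of 8 choroid plexus markers, which would come from ventricle lining carried along in dissection, was 1.35, 0.87 and -2.78 in the wild-type hippocampal arrays and 0.84, -2.72 and -2.05 in the knockout ones. The third wild-type array, where Osgin1 was lowest among wild types, was the lowest in these markers too, and the first knockout array, where Osgin1 was highest among knockouts, was the highest of its group. As a sum over the list, in multiples of the array's 75th percentile, the markers ran from 1.70 to 36.4 in wild-type and from 1.66 to 25.3 in knockout hippocampus, with none of the 8 called. All 8 were lower on average in knockout hippocampus and in knockout cortex, where the sum ran from 4.27 to 9.29 in wild type and from 0.97 to 10.95 in knockout. In brainstem it ran from 1.57 to 4.42 in wild type and from 1.58 to 11.8 in knockout, and 7 of 8 were higher on average in knockout. Of the 8, only Otx2 missed detection on any array, on 1 array of 1 group. With group means subtracted, the markers' mean and Osgin1 correlated with Pearson's r = 0.57 over the 18 arrays but with r = -0.29 over the 12 arrays of cortex and brainstem, values given as a description of arrays that share slides and labelling. The third knockout brainstem array, for example, was the highest of its group in these markers, at -0.03, and the lowest in Osgin1, at -5.16. With the markers' mean as a covariate, a setting added after the data were seen, the difference of Osgin1 was -1.93 ± 0.19 (SE) in cortex, -1.19 ± 0.20 in hippocampus and -1.71 ± 0.19 in brainstem.

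**Figure D5:**
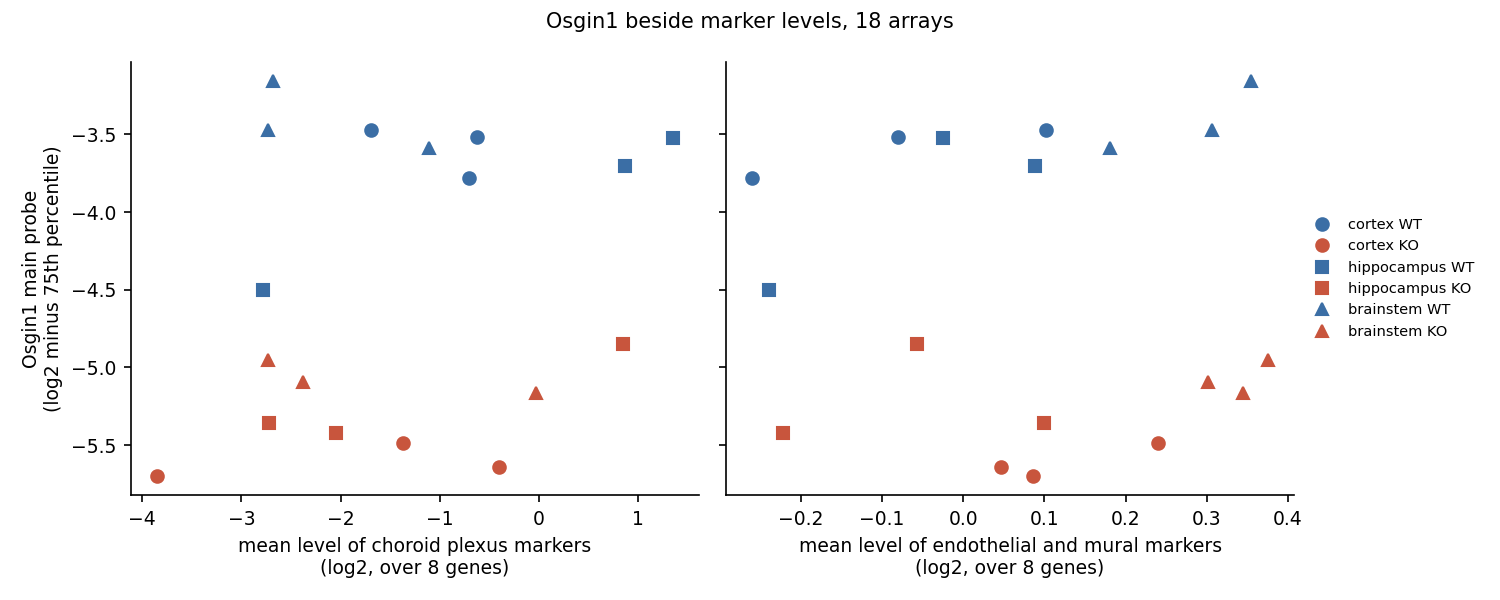
Main-probe level of Osgin1 (vertical axis, log2 minus the 75th percentile of the array) against the mean log2 level of 8 choroid plexus markers (left) and 8 endothelial and mural markers (right) on the 18 arrays. Blue is wild type, red is knockout, and the shape gives the region. All wild-type points lie above all knockout points, and the hippocampal arrays spread widely along the choroid plexus axis, from -2.78 to 1.35.

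Endothelial and mural markers, genes of the vessel wall where Osgin1 is known to be induced, ran in the order of Osgin1 in wild-type cortex. Their mean level was 0.10, -0.08 and -0.26 there, beside -3.47, -3.51 and -3.78 for Osgin1. Other groups did not all keep the order: the markers read -0.02, 0.09 and -0.24 in wild-type hippocampus and 0.24, 0.05 and 0.09 in knockout cortex. With group means subtracted, Pearson's r with Osgin1 was 0.62 over the 18 arrays and 0.79 over the 12 of cortex and brainstem, again as a description. This list and the choroid plexus list had the highest r over the 18 arrays of all marker lists. The other lists ran from -0.49 (cortex markers) to 0.26 (hippocampus markers). Over the 12 arrays those others ran from -0.57 (oligodendrocyte and myelin markers) to 0.19 (neuron markers). Between genotypes, the summed level of the endothelial and mural markers was 17.6 to 24.09 in wild-type and 24.03 to 28.6 in knockout cortex. All 8 were higher on average in knockout cortex. The sum was 18.1 to 22.8 and 19.3 to 24.0 in hippocampus, and 25.5 to 29.8 and 27.9 to 30.9 in brainstem, wild type first. Of the 8, 4 were lower on average in knockout hippocampus and 4 in knockout brainstem. None of the 8 was called in any region, and all were well above background in every group.

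Every marker list was compared between genotypes in each region, and in 2 cases the summed level of a list separated them. Single genes separated too: all knockout arrays lay below all wild-type arrays for 3.1% of genes in cortex and 2.7% in hippocampus. The share with all knockout arrays above was not counted, so the 2 cases are a description. The 3 measured erythrocyte markers ran from 13.9 to 17.4 in wild-type and from 18.1 to 22.4 in knockout cortex. The 8 astrocyte markers ran from 205.5 to 218.9 in wild-type and from 231.8 to 254.6 in knockout hippocampus. Both were higher in knockout, where Osgin1 was lower, no member was called, and their part in the difference of Osgin1 was not tested. By mean log2 level the erythrocyte list separated in hippocampus too, from -1.24 to -0.70 in wild type and from -0.57 to -0.32 in knockout. The brainstem list separated in brainstem by that measure, from -2.19 to -2.01 in wild type and from -2.42 to -2.24 in knockout. Neuron, oligodendrocyte and microglia lists overlapped between genotypes in all regions.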

How the data were processed

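The 18 scanner files are 1-colour Agilent arrays of 45018 spots, extracted with Agilent Feature Extraction 10.7.3.1, per the file headers. The authors deposited a processed intensity, pixel medians and detection flags for each spot. The deposited value table holds linear intensity and was used as an alternative only. RNA was extracted with Isogen and amplified with an Agilent kit, per the labels' protocols. From the deposited intensity, log2 values minus each array's 75th percentile were computed here. Control and outlier spots (30 to 140 per array) were left out. Probes were named through RefSeq accessions, and 26690 of 41174 had 1 symbol, 14484 none and 0 several. Kept were 30066 probes that the software flagged as well above background on every array of some group, and each gene was read from its probe with the highest mean level. limma 3.58.1 in R 4.3.3 fitted 1 mean per group over 18 arrays, with 12 residual degrees of freedom, two-sided tests, and Benjamini-Hochberg adjustment over 22671 genes (7846 of them identifiers without a symbol). The fit was tested on simulated data. Genes were called at an adjusted p under 0.05. For Osgin1, knockout contrasts carry no p.

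The number of arrays limits the precision. The files' build is mm9, so no gene-table coordinate is given for them, and the promoter windows are those of RefSeq. Because gMeanSignal is not a column of the files, the normexp alternative used the pixel medians with an offset of 50. No column was unmapped. Same-numbered wild-type and knockout arrays of a region deviated together from their group means (r between 0.14 and 0.55 in 9 of 9 pairs, and between -0.45 and 0.19 for different numbers), so the numbers pair these arrays, which also shared slides. Same-numbered arrays of different regions in 1 genotype also tended to deviate together. Their r was over 0.1 in 13 of 18 pairs, beside 7 of 36 pairs with different numbers. The fit above leaves the numbers out, and blocks on them are among the alternatives.

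Named genes were both Osgin1 probes, Nfe2l2, NRF2 targets called in a region and 8 fixed targets, the listed regulators, Osgin2, the p53 target and autophagy gene with the smallest p in a region, the 3 neighbours on each side, and the 5 genes most like Osgin1 by each correlation. The gene, the lists and the rules were chosen with earlier results of these data known. Alternatives changed the background correction, scaling, filter, moderation, blocks, probe, table and arrays used.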

Additional observations from a re-analysis of the deposited data

How the results depend on the processing

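The knockout difference of Osgin1 kept its direction in each of 22 alternatives per region, 2 of them involving the replicate block. Several of these could not have changed it. The filters, the moderation, the contrast's own groups and the replicate block within regions left the difference at -2.02 in cortex. The alternatives that moved it by more than the replicate spread were the normexp correction (-0.72 in cortex, -0.48 in hippocampus, -0.70 in brainstem), the spot median minus local background (-1.52 in cortex, -1.46 in brainstem), the second probe (-0.61, -0.64 and -0.23) and, in cortex, the deposited table by its own column names (-1.30). The table's cortical value comes from its column for the third knockout array, which holds the first wild-type hippocampal array, where Osgin1 reads 73.2. Normexp adds the same offset to all spots, which draws dim spots together. For the other moves the cause was not tested. Leaving out 1 array in turn gave -2.12 to -1.96 in cortex, -1.60 to -1.11 in hippocampus and -1.76 to -1.54 in brainstem.

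The region contrasts were less stable. In the deposited table the knockout cortex mean includes the first wild-type hippocampal array, as given above. For the changes under other settings the cause was not tested. Wild-type brainstem minus cortex was -0.0248 with normexp. Wild-type brainstem minus hippocampus passed at 0.50 with quantile normalization and 0.51 with the replicate block over all arrays (limma adjusted p = 0.0463 and 0.0159). It also passed at 0.51 with a block by replicate number within genotype and 0.70 with the choroid plexus covariate (limma adjusted p = 0.0192 and 0.0163). With the slide block it was -0.0053. Leaving out the first wild-type hippocampal array also made that contrast pass, as given above. Of its passing settings, the block by replicate number within genotype and the covariate were added after the data were seen. Knockout hippocampus minus cortex was -0.61 with the table and -0.33 with the second probe. Knockout brainstem minus cortex was -0.19 with the table. With normexp it was 0.001 and with local background subtraction 0.09 (limma adjusted p = 0.997 and 0.773). It passed at 0.54 with only its 2 groups and 0.54 with the replicate block over all arrays (limma adjusted p = 0.0372 and 0.0133). It also passed at 0.54 with the block by replicate number within genotype and 0.52 with the covariate (limma adjusted p = 0.0165 and 0.0469). Knockout brainstem minus hippocampus was -0.0014 with normexp, -0.0391 with local background subtraction, -0.37 with the slide block and 0.75 with the second probe. Without 1 array in turn, the wild-type contrasts ranged from -0.52 to -0.03 (hippocampus minus cortex), 0.06 to 0.27 (brainstem minus cortex) and 0.21 to 0.70 (brainstem minus hippocampus), and the knockout contrasts from 0.22 to 0.50, 0.48 to 0.60 and 0.04 to 0.32.

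The count of NRF2 targets called was 0 in each region with the table (3, 2 and 6 at an unadjusted limma p under 0.05) and with only the contrast's own groups (4, 3 and 5). In hippocampus it was 1 with the array median, with no filter on dim probes and with the covariate, 1 without any 1 array, and 0 with the replicate block within regions (5 unadjusted). Leaving out 1 array gave 2 in cortex and in brainstem. In cortex both replicate blocks called 3, with Aox1 added, and the block over all arrays left 2 called in hippocampus and in brainstem. Beyond these, the replicate block changed no call of the Osgin1 contrasts or of the target counts. Brightness limits the second probe in cortex and hippocampus, where 3 of its knockout spots were not well above background.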

Other observations

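The 17 genes whose knockout arrays lay below the wild-type arrays in all 3 regions held, besides Osgin1, Nfe2l2 and the targets named above, several that no list here contained. Pir, an iron-binding nuclear protein, was lower in knockout, with log2 differences of -0.21, -0.30 and -0.41 for cortex, hippocampus and brainstem. Hspb8, a small heat shock protein that acts in selective autophagy, differed by -0.33, -0.28 and -0.23. Tbxas1, thromboxane synthase, differed by -0.27, -0.26 and -0.31, and Syt2, a calcium sensor of synaptic vesicles, by -0.33, -0.68 and -0.27. Myg1, Gm10778 and Naa10 had differences between -0.27 and -0.08. The transcripts AK017540, AK045391 and AF208109, which the gene table does not name, differed by -3.54, -1.82 and -0.65 in cortex. These genes were picked after their values were seen, and the separation is a description of these arrays.

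In the deposited value table, 11 of 18 columns equalled the array of their name to within 0.497%, and 7 equalled another array as closely. The column for the third knockout cortex array held the first wild-type hippocampal array, and the column for the third knockout hippocampal array held the third knockout cortex array. The other 5 hippocampal columns each held the array next in order. Read by its own column names, the table gives Osgin1 an intensity of 14.2, 14.6 and 73.2 in knockout cortex, where the scanner files give 14.2, 14.6 and 17.8.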
